A study of Mus musculus with 9 samples.

Results

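Matricellular proteins and matrix glycoproteins were followed through 10 genes of 4T1 cells, namely Thbs1, Thbs2, Tnc, Tnxb, Postn, Sparc, Spp1, Fn1, Fbn1 and Lgals3. The genes were taken by name and make up 10 of the 24421 genes in the count table. All 10 were among the 12575 genes that passed the filter on low counts and were tested. Thbs2 and Tnxb passed that filter through the 3D libraries, where they were higher than in the monolayer libraries, though Thbs2 was very low throughout.

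RNA-seq was performed on 9 libraries of 4T1, an established mouse mammary carcinoma line, in 3 conditions with 3 libraries each, all after 5 days of culture. The conditions were 3D spheroids, grown over soft agar, without added palmitate, 3D spheroids with 75 µM palmitate, and 2D monolayers with 75 µM palmitate. Palmitate was given bound to albumin, and cultures without this addition received the vehicle. According to the paper, the medium contained serum, and the final palmitate concentration was above the amount added. In what follows, "without palmitate" therefore means without added palmitate, and "with palmitate" means with the addition. Cultures free of palmitate were not compared. Monolayers without palmitate were not analysed here, and a response to palmitate in 2D was therefore not tested. The cultures held no host stroma, and the labels do not say whether replicates came from separate cultures, so p-values measure the spread between these libraries, which may be technical.

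Matricellular proteins are secreted into the matrix but mostly signal to cells, through integrins and other receptors, rather than bear load. Structural glycoproteins such as fibronectin and fibrillin-1 assemble into fibres that store growth factors. In mammary tumours both kinds are made by cancer cells and by fibroblasts, and osteopontin, tenascin-C and periostin are known for their place in metastatic niches.

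Upstream sequences are shown for the 2 members with the smallest p in each direction between 3D and 2D cultures, so that the DNA in front of the genes on which the comparison turns can be read beside their levels. They are the 250 bases before the start of each gene in RefSeq (GRCm38.p6), written 5′ to 3′ on the strand of the gene, and 8 of the 10 members had an entry. The window of Spp1 is chr5:104434861-104435110 (+ strand), that of Tnxb chr17:34670285-34670534 (+ strand), that of Postn chr3:54360857-54361106 (+ strand) and that of Sparc chr11:55420081-55420330 (- strand), where the RefSeq start lies inside the gene's span in GENCODE. Capitals mark matches, on either strand, to any of 6 motifs.
Spp1: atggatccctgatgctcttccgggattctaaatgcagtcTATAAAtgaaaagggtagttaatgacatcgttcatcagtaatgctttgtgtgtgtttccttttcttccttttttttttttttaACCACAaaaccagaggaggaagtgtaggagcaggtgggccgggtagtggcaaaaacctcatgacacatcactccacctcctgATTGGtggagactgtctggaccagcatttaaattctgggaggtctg
Tnxb: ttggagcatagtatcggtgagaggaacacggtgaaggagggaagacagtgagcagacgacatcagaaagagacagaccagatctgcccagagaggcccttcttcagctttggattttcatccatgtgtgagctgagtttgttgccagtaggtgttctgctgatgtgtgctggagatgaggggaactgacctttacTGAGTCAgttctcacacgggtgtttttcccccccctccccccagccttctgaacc
Postn: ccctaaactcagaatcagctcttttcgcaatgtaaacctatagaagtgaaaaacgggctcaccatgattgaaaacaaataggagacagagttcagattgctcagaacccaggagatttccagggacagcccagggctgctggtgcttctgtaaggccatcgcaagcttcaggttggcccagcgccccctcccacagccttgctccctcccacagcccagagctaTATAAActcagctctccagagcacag
Sparc: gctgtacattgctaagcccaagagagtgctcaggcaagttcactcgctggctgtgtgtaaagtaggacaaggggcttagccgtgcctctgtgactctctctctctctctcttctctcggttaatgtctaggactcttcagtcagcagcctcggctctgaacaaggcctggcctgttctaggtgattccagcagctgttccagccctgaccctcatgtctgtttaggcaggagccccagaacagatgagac

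The motifs searched were TATAAA for the core promoter, TGANTCA for AP-1, CATTCC for TEAD, TGTGGT for RUNX, CCAAT for NF-Y and GGGCGG for SP/KLF factors. They occurred in 12.4%, 6.7%, 12.6%, 14.0%, 33.8% and 32.7% of the 32851 promoter windows of the same length. Counted back from the start, the Spp1 window held TATAAA at position -211, TGTGGT on the reverse strand at -128 and CCAAT on the reverse strand at -46. The Tnxb window held TGANTCA at -55, the Postn window held TATAAA at -26, and the Sparc window held none of the 6 motifs. No matches overlapped in these 4 windows, and a match is a run of letters, not a known binding site.

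The level of each member in each library is given in CPM, counts relative to the total of the library after scaling by edgeR's TMM method, and levels of different genes are compared only per kilobase of transcript. Per kilobase, Spp1, which encodes osteopontin, was the highest member in every condition, with 3762 ± 273 CPM per kb in 3D cultures without palmitate, 3355 ± 396 in 3D with palmitate and 383 ± 14.8 in 2D with palmitate (SD, n = 3). Among 12506 genes with a known length, that placed Spp1 at rank 2, 4 and 106. Fn1, encoding fibronectin, ranked 23, 37 and 222 per kilobase in the same order of conditions, and Thbs1, encoding thrombospondin-1, ranked 151, 212 and 563. Lgals3, encoding galectin-3, held ranks 216, 175 and 216. Sparc, which encodes a collagen-binding matricellular protein, went the other way, from rank 2505 and 2533 in 3D to 475 in 2D.

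In 3D cultures without palmitate, the order per kilobase was Spp1, Fn1, Thbs1, Lgals3, Sparc, Tnc, Tnxb, Postn, Thbs2 and Fbn1, and no neighbours in that order overlapped between libraries. With palmitate in 3D, Lgals3 and Thbs1 overlapped, as did Postn and Thbs2. In 2D the order was Spp1, Lgals3, Fn1, Sparc, Thbs1, Postn, Tnc, Tnxb, Fbn1 and Thbs2, and here Lgals3 overlapped with Fn1 and Tnxb with Fbn1. Postn thus stood above Tnc in 2D, at 9.07 ± 0.426 against 7.01 ± 0.325 CPM per kb, and below both Tnc and Tnxb in 3D with palmitate, at 0.257 ± 0.186 CPM per kb.

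**Figure D1:**
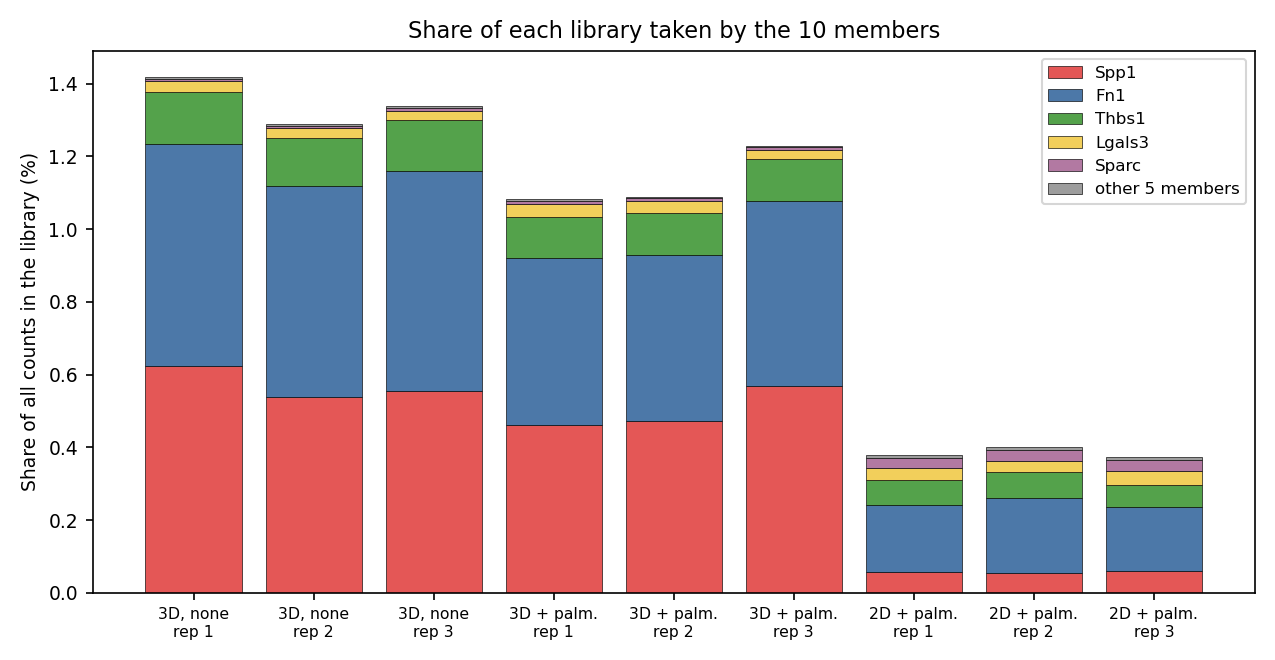
Stacked bars give the percentage of all counts in each of the 9 libraries that fell on the 10 members, with Spp1, Fn1, Thbs1, Lgals3, Sparc and the rest in separate colours. The members took between 1.08% and 1.42% of the counts in the 6 libraries of 3D cultures and between 0.373% and 0.4% in the 3 of 2D cultures.

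As plotted by library, Spp1 and Fn1 carried most of the members' reads. Together they took 85.1% to 87.5% of the members' counts in the 6 libraries of 3D cultures and 63.4% to 65.3% in the 3 libraries of 2D cultures. Thbs2 and Fbn1, at the other end, never exceeded 15 counts in a library. In bulk RNA, fewer cells of a type and less RNA per cell cannot be told apart.

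Growth as spheroids rather than as monolayers, with palmitate in both, was compared first. In 3D, 5 members were higher (Spp1, Fn1, Thbs1, Thbs2 and Tnxb), 3 were lower (Postn, Sparc and Tnc), and Fbn1 and Lgals3 did not pass the test. These calls used edgeR's quasi-likelihood test, with p-values adjusted by Benjamini-Hochberg over all 12575 genes and a threshold of 0.05, at which 68.3% of genes were called, 34.5% higher and 33.9% lower. With 8 of 10 called, the share of members is near that background. Thbs2 and Tnxb entered the test through the 3D libraries, so their calls as higher add no support to that share. With at least 10 counts in every library, which removes Thbs2, Tnxb, Postn and Fbn1, 3 members were higher and 2 lower. In all 8 the libraries of both groups did not overlap, as was the case for 69.4% of all genes tested. The median log2 fold change was 0.40 over the members and 0.01 over all genes tested.

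**Figure D2:**
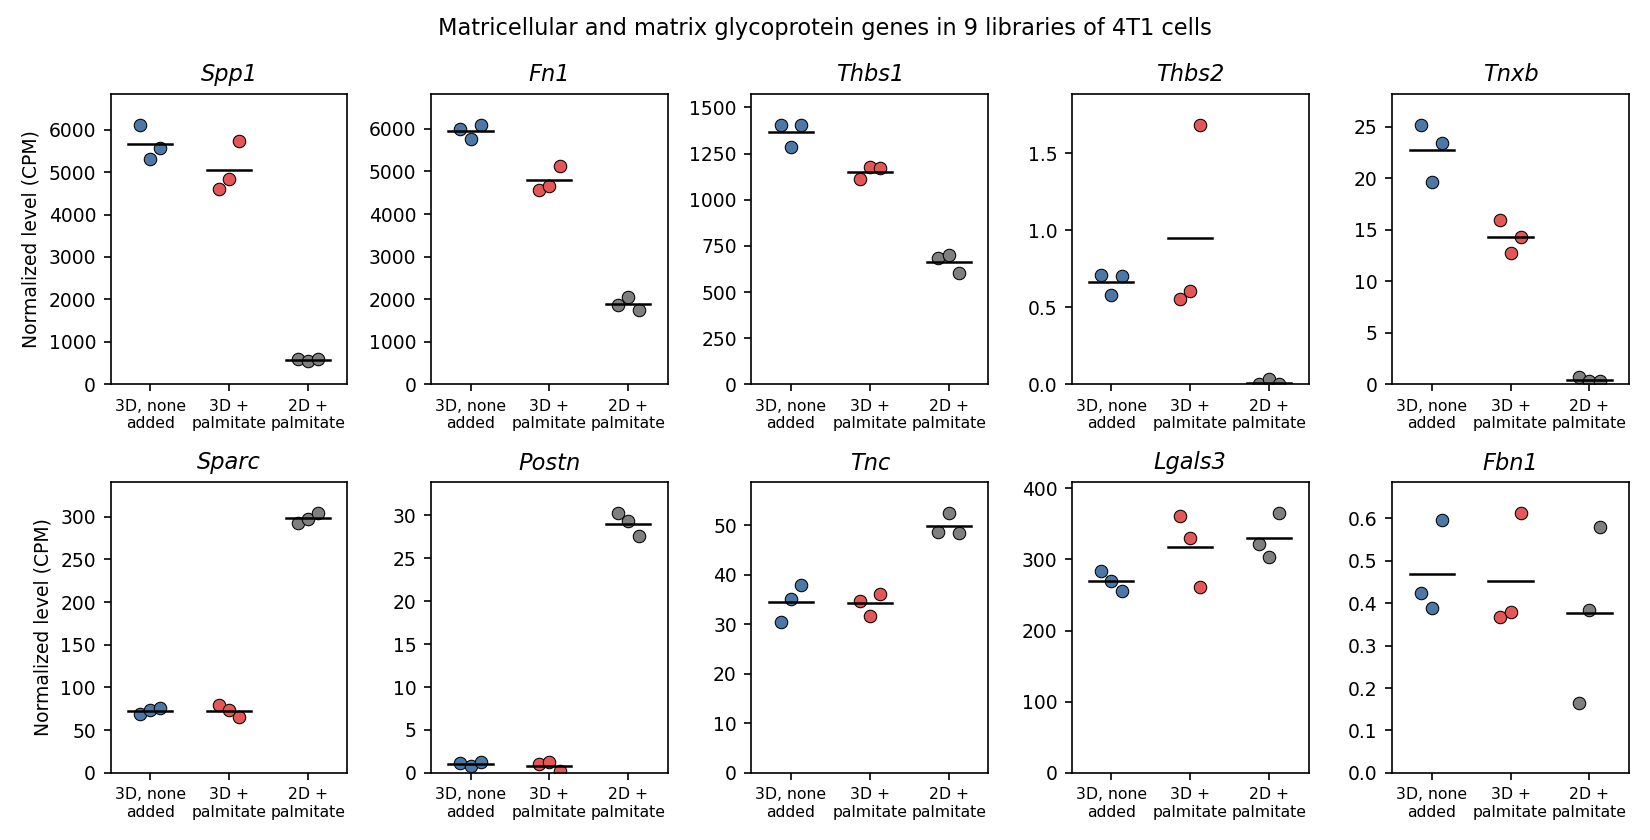
Each panel plots the level of a member in CPM on a linear axis from 0, with a point for each of the 9 libraries and a line at the mean of each condition. Spp1 lay between 4598 and 6118 CPM in 3D and between 552 and 594 in 2D, whereas Postn lay between 0.153 and 1.29 CPM in 3D and between 27.6 and 30.3 in 2D.

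Osteopontin is a secreted ligand of integrins and CD44. Spp1 (ENSMUSG00000029304.14, GRCm38 chr5:104435118-104441050, 8 exons) had levels of 4598, 4838 and 5732 CPM in 3D with palmitate against 587, 552 and 594 CPM in 2D. Every 3D library was far above every 2D library, and the difference was 8.75-fold (log2 fold change 3.13 ± 0.0871 SE, edgeR adjusted p = 1.18e-12). The upstream window of Spp1, shown above, is the only one of the 4 with matches to TGTGGT and CCAAT. These motifs occurred in 14.0% and 33.8% of all promoter windows, and a part of them in the difference was not tested.

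Fibronectin is the fibre-forming ligand of integrin α5β1. Fn1 (ENSMUSG00000026193.15, GRCm38 chr1:71585520-71653200, 45 merged exons) had levels of 4572, 4662 and 5137 CPM in 3D with palmitate and 1867, 2057 and 1743 CPM in 2D. The groups did not overlap, and Fn1 was 2.54-fold higher in 3D (log2 fold change 1.34 ± 0.0704 SE, edgeR adjusted p = 6.37e-10). Correction of each library for GC content and for transcript length brought the log2 fold change of Fn1 to 0.88.

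Thrombospondins are trimeric or pentameric matricellular proteins, of which thrombospondin-1 binds CD36, CD47 and latent TGF-β. Thbs1 (ENSMUSG00000040152.8, GRCm38 chr2:118111876-118127133, 22 merged exons) had levels of 1110, 1176 and 1171 CPM in 3D with palmitate and 685, 701 and 605 CPM in 2D. This was a 1.74-fold difference without overlap (log2 fold change 0.80 ± 0.0675 SE, edgeR adjusted p = 1.01e-07), which came to a log2 fold change of 0.44 under the same correction. Thbs2 (ENSMUSG00000023885.9, GRCm38 chr17:14665500-14694235), which encodes the paralog thrombospondin-2, was detected at a very low level. It had 15, 8 and 11 counts in the 3D libraries with palmitate, 15, 9 and 13 in those without, and 0, 1 and 0 counts in 2D. The 34 counts in 3D with palmitate against 1 in 2D gave a ratio of 47.7 after scaling for depth, with an exact 95% interval from 8.0 to 1939 that covers counting error only. The separate estimate from the edgeR fit was 34.4-fold (log2 fold change 5.11 ± 0.807 SE, edgeR adjusted p = 5.54e-05). The direction of Thbs1 and Thbs2 was the same, while their levels per kilobase in 3D with palmitate were 197 ± 6.27 and 0.161 ± 0.108 CPM per kb (SD, n = 3).

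Tenascins are large glycoproteins of the pericellular matrix, and both measured members changed, in opposite directions. Tnxb (ENSMUSG00000033327.16, GRCm38 chr17:34670535-34719815, 41 merged exons), which encodes tenascin-X, a partner of collagen fibrils in soft connective tissue, had levels of 16.0, 12.7 and 14.2 CPM in 3D with palmitate. In 2D it had 8, 9 and 8 counts, or 0.662, 0.288 and 0.357 CPM. Tnxb was higher in every 3D library (log2 fold change 5.22 ± 0.224 SE, edgeR adjusted p = 7.27e-11). Given the wide error of Thbs2, the order of these differences in Tnxb and Thbs2 was not resolved. Tnc (ENSMUSG00000028364.15, GRCm38 chr4:63959785-64047015, 27 merged exons), which encodes tenascin-C, had levels of 34.7, 31.7 and 36.1 CPM in 3D with palmitate against 48.6, 52.4 and 48.3 CPM in 2D. All 3D libraries lay below all 2D libraries, with a fall in 3D of 1.46-fold (log2 fold change -0.55 ± 0.0859 SE, edgeR adjusted p = 5.01e-05). Under the GC and length correction, the log2 fold change of Tnc was -0.97.

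Periostin and SPARC are matricellular proteins that bind collagen. Postn (ENSMUSG00000027750.16, GRCm38 chr3:54361109-54391037, 22 merged exons), encoding periostin, had levels of 1.03, 1.29 and 0.153 CPM in 3D with palmitate and 30.3, 29.3 and 27.6 CPM in 2D. The 3D libraries held 28, 17 and 1 counts, and the 2D libraries 366, 916 and 619. Postn was 29.6-fold lower in 3D (log2 fold change -4.89 ± 0.198 SE, edgeR adjusted p = 4.11e-11), the largest fall among the members. Sparc (ENSMUSG00000018593.13, GRCm38 chr11:55394500-55423183, 12 merged exons) had levels of 79.5, 73.7 and 65.5 CPM in 3D with palmitate and 292, 298 and 304 CPM in 2D. It was 4.06-fold lower in 3D without overlap (log2 fold change -2.02 ± 0.0738 SE, edgeR adjusted p = 1.31e-11).

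Fbn1 and Lgals3 were not called. Fbn1 (ENSMUSG00000027204.13, GRCm38 chr2:125300594-125507993), which encodes fibrillin-1, the core of microfibrils, had between 2 and 13 counts in every library, and its log2 fold change of -0.0019 had a 95% interval from -0.85 to 0.84. Differences of that size in either direction were not detectable at this depth. Lgals3 (ENSMUSG00000050335.17, GRCm38 chr14:47367751-47386160), whose product binds β-galactosides on matrix glycoproteins, had levels of 361, 330 and 262 CPM in 3D with palmitate and 322, 304 and 365 CPM in 2D. Its groups overlapped, and the 95% interval of the log2 fold change ran from -0.27 to 0.16 around -0.05 (edgeR adjusted p = 0.673). After the GC and length correction it was 0.12, with an edgeR adjusted p of 0.0453.

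**Figure D3:**
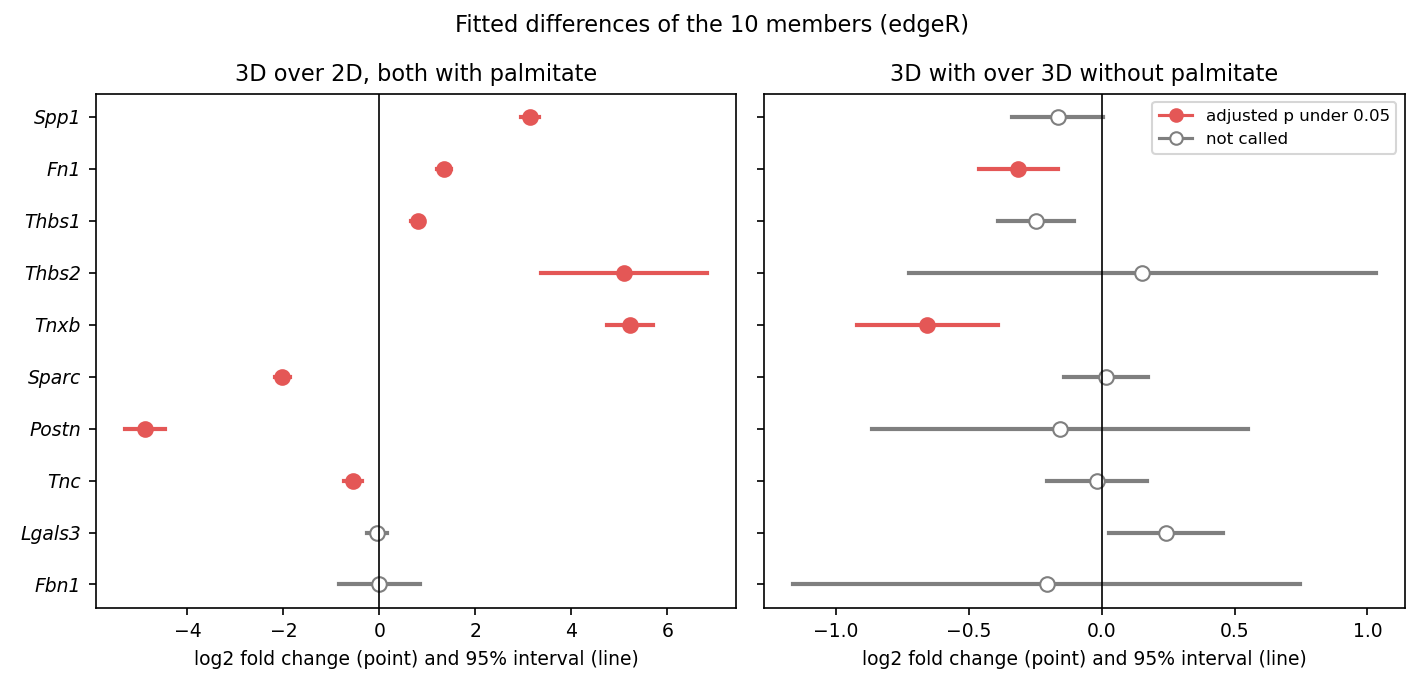
Points give the fitted log2 fold change of each member and lines its 95% interval, at left for 3D over 2D cultures with palmitate and at right for 3D cultures with over those without palmitate. At left Tnxb stands at 5.22 and Postn at -4.89, while at right the members lie between -0.66 for Tnxb and 0.24 for Lgals3.

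The addition of 75 µM palmitate to 3D cultures moved fewer members and by less. Tnxb and Fn1 fell with palmitate, and the other 8 members did not pass the test. Over all genes tested 2.19% were called, 1.38% higher and 0.811% lower, and 0 members were called higher. At an unadjusted p-value under 0.05, 1 member was higher and 3 were lower, where 10.3% of all genes were higher and 6.99% lower. DESeq2 called 0 members higher and 3 lower, and 1.92% of all genes higher and 1.25% lower. In 3 of the 10 members (Tnxb, Fn1 and Thbs1) the libraries of both groups did not overlap, compared to 18.6% of all genes tested. The median log2 fold change was -0.16 over the members and 0.01 over all genes tested. The comparison shares the 3D libraries with palmitate with the comparison above, so a chance deviation of those libraries enters both.

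Tnxb had levels of 25.2, 19.6 and 23.4 CPM without palmitate and 16.0, 12.7 and 14.2 CPM with it. Every library with palmitate was below every library without, by 1.57-fold (log2 fold change -0.66 ± 0.124 SE, edgeR adjusted p = 0.0147). The call was lost without replicate 1 or 3 of the 3D cultures without palmitate, without replicate 2 of those with palmitate, and with the share of reads on Rn45s, a ribosomal RNA precursor, as a covariate, with edgeR adjusted p-values of 0.0858, 0.0722, 0.0958 and 0.167. The log2 fold changes of Tnxb under these settings were -0.58, -0.64, -0.57 and -0.60.

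Fn1 had levels of 6003, 5752 and 6100 CPM without palmitate and 4572, 4662 and 5137 CPM with it, again with no overlap. The fall was 1.24-fold (log2 fold change -0.31 ± 0.0692 SE, edgeR adjusted p = 0.0337). The edgeR call of Fn1 was lost in 9 of 18 alternatives, among them the fit of the 2 groups alone (adjusted p = 0.0644), the Rn45s covariate (0.221) and the omission of any of the 3 libraries without palmitate (0.116, 0.0864 and 0.136), of replicate 1 or 2 of the 3D cultures with palmitate (0.0707 and 0.142) or of replicate 1 of the 2D cultures (0.0665). The share of Rn45s was 1.97%, 1.77% and 2.77% without palmitate and 3.14%, 5.38% and 1.81% with it, and with that covariate the log2 fold change of Fn1 was -0.28, against -0.31 without it.

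Thbs1 had levels of 1407, 1287 and 1403 CPM without palmitate and 1110, 1176 and 1171 CPM with it. Its log2 fold change was -0.25 ± 0.067 SE without overlap, and it did not pass the test (edgeR adjusted p = 0.0745), whereas DESeq2 gave an adjusted p of 0.0236. Spp1 overlapped between the groups, at 6118, 5310 and 5579 CPM without palmitate and 4598, 4838 and 5732 CPM with it (log2 fold change -0.17 ± 0.0801 SE, edgeR adjusted p = 0.308). Lgals3 also overlapped, at 283, 270 and 255 CPM against 361, 330 and 262 CPM (log2 fold change 0.24 ± 0.101 SE, edgeR adjusted p = 0.232).

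Replicate 3 of the 3D cultures with palmitate was the smallest library, with 6595514 counts, and stood apart from the other replicates of its group. In Spp1, Fn1 and Lgals3 it was the library nearest to the cultures without palmitate, its Thbs2 level was 1.69 CPM (11 counts) against 0.552 and 0.608 in the other replicates, and its Postn level was 0.153 CPM (1 count). Without it, 14.9% of all genes tested were called in place of 2.19%, and 5 members, with Fn1, Tnxb, Thbs1 and Spp1 lower and Lgals3 higher. The log2 fold changes were then -0.37, -0.65, -0.26, -0.27 and 0.36, with edgeR adjusted p-values of 0.00152, 0.00339, 0.0148, 0.00937 and 0.00416. Between 3D and 2D cultures the number of called members was 8 with and without this library.

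The remaining members showed small fitted differences with palmitate. The 95% intervals of the log2 fold change ran from -0.21 to 0.17 for Tnc, from -0.14 to 0.17 for Sparc, from -0.86 to 0.55 for Postn, from -0.72 to 1.03 for Thbs2 and from -1.16 to 0.75 for Fbn1. The intervals of Tnc and Sparc were narrow, and those of the sparse genes Postn, Thbs2 and Fbn1 were wide, so that changes within these bounds were not detectable at this depth.

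The partners of the members were described from lists arranged by role, against the same background of 68.3% of genes called. Of 16 tested cell surface receptors of these proteins, 12 were higher and 1 was lower in 3D than in 2D with palmitate, with a median log2 fold change of 0.88. Itga8, whose product pairs with integrin β1 and binds fibronectin, osteopontin and tenascins, was 22.0-fold higher (196 ± 33.9 against 8.80 ± 0.265 CPM, SD, n = 3). Cd44, a receptor of osteopontin and hyaluronan, was 3.01-fold higher. Lrp1, which takes up thrombospondins, was 2.63-fold higher, a log2 fold change of 1.4 that was 0.88 after the GC and length correction. The integrin subunit gene Itgb6 was 4.47-fold lower. Chosen after their values were seen, Itgb3, a receptor subunit for osteopontin, had a log2 fold change of 2.44 and Cd47 of 0.79 (0.52 after that correction), both called, and Cd36 never exceeded 1 count in a library.

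Related matrix glycoproteins were split, with 6 of 12 tested higher and 5 lower in 3D. The CCN family genes Ctgf and Cyr61 were 16.4-fold and 10.7-fold lower, and Wisp1 3.39-fold lower, while Nov, of the same family, was 3.41-fold higher. Ecm1 was 3.11-fold and Tgfbi, a paralog of periostin, 2.24-fold higher, and the latter thus moved against Postn. Of 9 microfibril and elastic fibre genes tested, 6 were higher and 2 lower, with the latent TGF-β binding protein genes Ltbp3, Ltbp4 and Ltbp1 at 3.17-fold, 2.92-fold and 1.46-fold higher, while Fbn1 itself was not called. Fbln2 was 1.55-fold lower. Loxl1 passed the filter through the 2D libraries, where its level was low but higher than in 3D. It had 3 counts in 3D with palmitate and 84 in 2D. After scaling for depth this put it 19.96 times lower in 3D, with an exact 95% interval from 6.6 to 98.7 for counting error only. The log2 fold change of Ltbp1 was 0.54, and 0.14 after the GC and length correction.

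Among 14 enzymes that cut, phosphorylate or crosslink these proteins, 8 were higher and 4 lower in 3D. Mmp3, a protease that cleaves fibronectin and osteopontin, was 7.63-fold higher, Tgm2, which crosslinks fibronectin, 2.09-fold, and Pcolce 2.49-fold. Adamts1 and Htra1 were 3.11-fold and 1.46-fold lower. All 10 tested galectins and galectin partners were called, 8 higher and 2 lower, with Lamp2 at 1.95-fold, Mgat5 at 3.27-fold and Lgals3bp at 1.59-fold higher and Lgals1 and Slc3a2 at 1.43-fold and 1.46-fold lower. The log2 fold change of Lgals1 was -0.52, and -0.19 after the GC and length correction. Lgals3 was not called beside them.

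**Figure D4:**
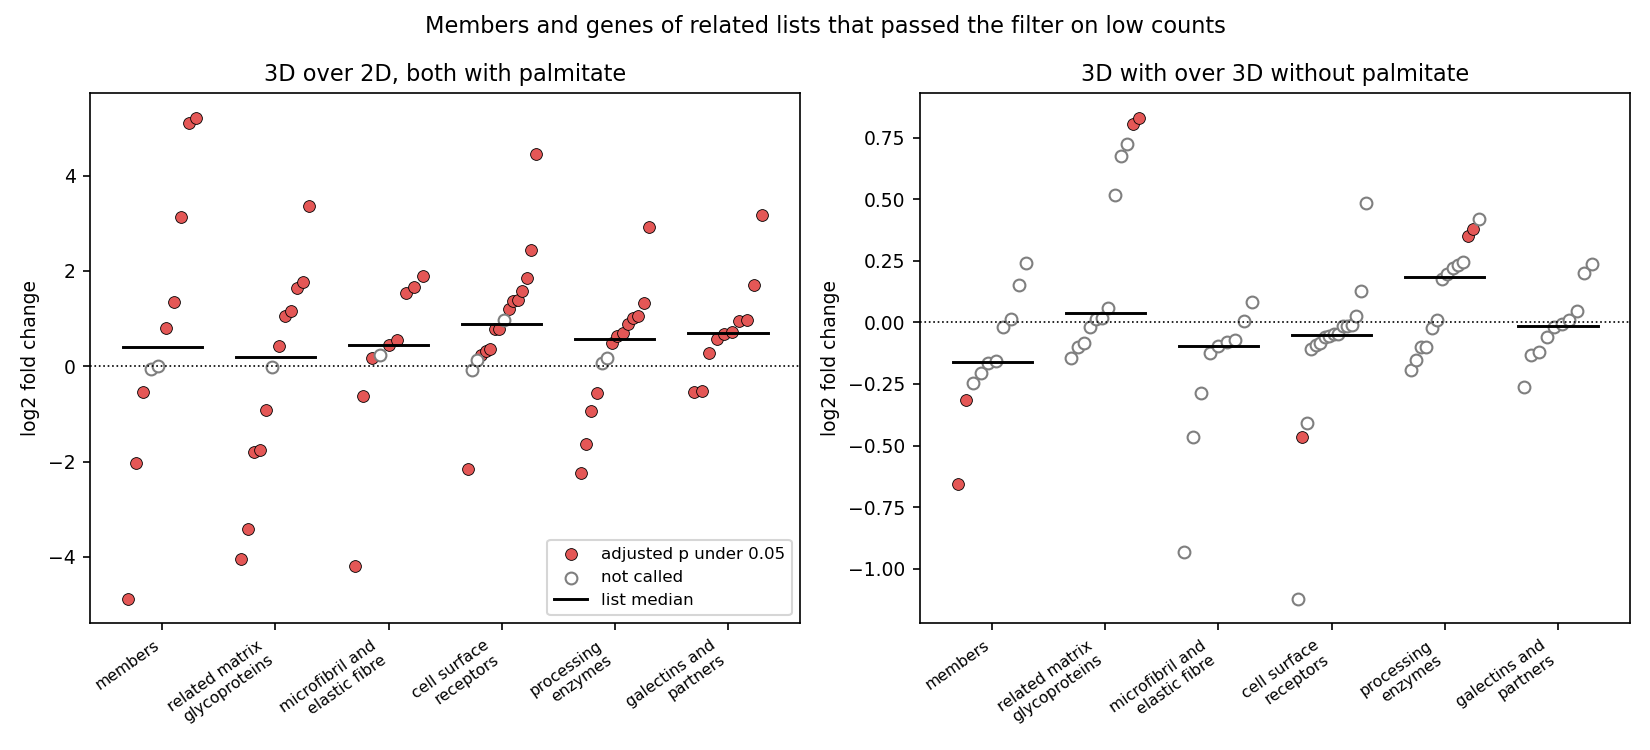
Points give the fitted log2 fold change of each member and of each tested gene of the 5 partner lists, filled where the adjusted p-value was under 0.05, with a line at the list median, at left for 3D over 2D and at right for palmitate in 3D. At left most points are filled, with 12 of 16 receptors called higher, while at right 2 members and 5 partner genes are filled.

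With palmitate in 3D, 5 of 61 tested partner genes were called, beside 2.19% of all genes. Ctgf and Cyr61 rose by 1.78-fold and 1.75-fold among the related glycoproteins, and Htra1 and Adamts1 by 1.27-fold and 1.30-fold among the enzymes. Itga8 fell 1.38-fold (log2 fold change -0.46 ± 0.0959 SE, edgeR adjusted p = 0.0241), a call that was lost under 6 of 18 alternatives. The call of Htra1 was lost with the Rn45s covariate (log2 fold change 0.34 against 0.35, edgeR adjusted p = 0.0545), and that of Adamts1 with the same covariate and without replicate 2 or 3 of the 3D cultures without palmitate (log2 fold changes 0.40, 0.37 and 0.38 against 0.38, edgeR adjusted p = 0.064, 0.0601 and 0.0593). No microfibril or galectin gene was called by edgeR in the fit of all 9 libraries. At an unadjusted p-value under 0.05, where 10.3% of all genes were higher and 6.99% lower, 8 of 14 enzymes were higher and 1 was lower. At that threshold 2 related glycoproteins and 2 galectin genes were higher, and 1 microfibril gene and 2 receptors were lower. DESeq2 called 1.92% of all genes higher and 1.25% lower. Of the lists it called 2 related glycoproteins and 2 enzymes higher, 1 microfibril gene and 1 receptor lower, and 0 galectin genes. After the GC and length correction, which called 7.9% of all genes, 7 enzymes, 1 microfibril gene and 1 galectin gene were called. Without replicate 3 of the 3D cultures with palmitate, where 14.9% of all genes were called, the numbers were 6, 1 and 2. Without a filter, where 3.33% of all genes were called, they were 3, 1 and 0.

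The genes whose levels followed each member most closely over the 9 libraries were found by Pearson's r of log2 CPM, as a description that mostly follows the split between 3D and 2D. For Spp1 they were Fut8 and Tmie (r = 0.999 for each), for Fn1 Fam102b and Nrp1, for Thbs1 Lipg and Cdadc1, and for Tnxb Trabd2b and Dmp1 (r = 0.999 and 0.998). Dmp1, which lies in the same family of small integrin-binding glycoproteins as Spp1, had means of 58.6, 43.5 and 1.30 CPM in 3D without palmitate, 3D with palmitate and 2D. Sparc was followed by Pcgf6 and Ajuba, Postn by 2810408I11Rik and H2-Ke6, Tnc by Tfdp1 and Spop, and Lgals3 by Nprl3 and Timm17b. For the sparse genes Thbs2 and Fbn1 the closest were Tmed10 and B3glct, and Tpgs2 and Ankrd29.

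The cell type named by the labels was checked against markers. All 7 epithelial markers were detected in every condition, with a summed level of 3943 to 5266 CPM over the 9 libraries, 5012 to 5266 in 3D with palmitate and 3943 to 4262 in 2D. Of 8 fibroblast markers Lum and Col3a1 had 0 counts and Dcn no more than 1, and their summed level of 93.9 to 112 CPM in 3D with palmitate and 32.2 to 34.2 in 2D was nearly all Pdgfra. Of 6 macrophage and leukocyte markers Adgre1 had 0 counts, and the sum was 16.4 to 19.3 CPM in 3D with palmitate and 33.8 to 38.8 in 2D, mostly Cd68 and Cd14. No endothelial marker exceeded 8 counts in a library. In 3D without palmitate the sums were 5092 to 5152, 91.9 to 107 and 13.1 to 14.3 CPM, and the part of these markers in the members' differences was not tested. The exons of Spp1 share 309 bases (18.8%) with Gm42793 on the same strand and those of Fbn1 2442 bases (20.1%) with Gm9913 on the opposite strand, and how the counting treated such reads is not given in the sources used here.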

How the data were processed

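The 9 RNA-seq libraries of 4T1 cells fell into 3 conditions. For each gene the authors deposited the raw counts of reads, without normalization. According to the paper's methods and the submitters' processing notes, RNA was extracted with TRIzol, libraries were made with a stranded mRNA kit, and short single-end reads were cleaned with fastq-mcf, inspected with FastQC (version 0.11.9), aligned to GRCm38 (mm10) with HISAT2 (version 2.1.0) and counted with HTSeq-count. The annotation release and strand setting are not given in the sources used here, so reads of overlapping genes may have been lost or shared. Total counts were between 6595514 and 31177756 per library, and Rn45s took between 1.77% and 5.38%. Between libraries of a condition, chi-square values per gene (genes of 20 or more counts) were 3.90 to 9.30, and 16.4 to 19.8 in 3D cultures with palmitate, so no libraries were duplicates. Every column of the table was mapped to a library, and 0 were left unused.

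Counts were filtered with filterByExpr, scaled by TMM and fitted in R 4.3.3 with edgeR 4.0.16 by the quasi-likelihood test, with condition as the only term over all 9 libraries. The study used DESeq2, which was run here (version 1.42.0) as an alternative. Standard errors were obtained from each log2 fold change and its F statistic. Log2 CPM used a prior count of 2. The procedure was tested on simulated data. Transcript lengths, GC content and gene positions came from GENCODE vM21 (GRCm38), which matched 24052 of 24421 genes, and upstream sequences from RefSeq. The bases after each start that the table holds were not used. The members and the lists were chosen with earlier results of these data known. All members were named, with the 2 genes of highest correlation for each, and from each list at most 3 called genes per direction with the smallest p and no overlap, of which 1 is not reported here. Alternatives were RLE scaling, library size only, no filter, at least 10 counts in every library, the 2 groups alone, DESeq2, the replicate block, the Rn45s share as a covariate, removal of GC and length trends (splines with 4 degrees of freedom), and each library left out in turn. An exact permutation test of 3 against 3 libraries cannot go below p = 0.1 and was not used.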

Additional observations from a re-analysis of the deposited data

How the results depend on the processing

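Of 349 alternative values of the 20 member log2 fold changes, 303 kept their direction and side of the threshold, 8 newly passed it in the same direction, 13 no longer passed it, 23 in 7 results changed sign, of which 1 (Lgals3 between 3D and 2D after the GC and length correction) then passed it, and 2 (Thbs2 and Fbn1 with palmitate) had no adjusted p from DESeq2. None of those 7 results passed the threshold as reported, and the cause was not tested. Between 3D and 2D cultures the 8 called members were 5 with at least 10 counts in every library, which removes Thbs2, Tnxb, Postn and Fbn1 from the test, 9 (6 higher and 3 lower) after the GC and length correction, and 8 to 8 with each library left out, while 8594 called genes overall became 7977 to 8866. With palmitate in 3D, the 2 called members were 1 with at least 10 counts in every library, 1 with the 2 groups alone, 1 with the replicate block, 0 with the Rn45s covariate and 4 after the GC and length correction, and 0 to 5 with each library left out. The 275 genes called overall with palmitate became 617 without a filter, 77 with the 2 groups alone, 111 with the replicate block, 44 with the Rn45s covariate and 993 after the GC and length correction, and 71 to 1901 with each library left out, where 1901 is the count without 3D + palmitate replicate 3. Of the called genes 62.9% were higher with palmitate, against 46.7% when scaled by library size only and 52.7% without a filter. Changes of sign between 3D and 2D were found for Fbn1 with DESeq2 (0.090), the replicate block (0.20) and the Rn45s covariate (0.12), with -0.20 to 0.35 when libraries were left out, and for Lgals3 after the GC and length correction (0.12), with -0.15 to 0.066 when libraries were left out. With palmitate they were found for Sparc with library size only (-0.0073), without a filter (-0.0053), with the Rn45s covariate (-0.023) and after the GC and length correction (-0.022), for Tnc with the last pair of settings (0.022 and 0.012), and for Fbn1 with the Rn45s covariate (0.00027). With libraries left out, Sparc spanned -0.055 to 0.077, Tnc -0.10 to 0.057, Thbs2 -0.23 to 0.54 and Postn -0.36 to 0.041. No pairing by replicate number was seen, though 3 libraries per condition are too few to exclude it. The deviations of same-numbered libraries correlated at -0.238 to 0.145 (median -0.0514 over 9 pairs) and others at -0.173 to 0.28 (median 0.0267 over 18 pairs). Only 2 of 9 libraries correlated best with a library of their own number. With the 2 groups alone, the filter on low counts removed Thbs2 between 3D and 2D and Fbn1 in both comparisons, so these were not tested there. Depth limits Thbs2, Fbn1 and, in 3D, Postn, where 3 counts correspond to 0.0961 to 0.459 CPM depending on the library, and these floors and the exact interval of a count ratio cover counting error only.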
